A study of Daphnia magna with 3 samples.

Results

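The genes described here are those of chemical signalling between nerve cells in Daphnia magna, a small freshwater crustacean. A gene record was taken as a member where its description held, in any case, acetylcholine, gamma-aminobutyric, GABA, glutamate receptor, dopamine, serotonin, 5-hydroxytryptamine, octopamine, neuropeptide, allatostatin, tachykinin, FMRFamide, synapt or syntaxin. This rule uses names only and no measured value. It found 198 of the 47109 records of the table, of which 17265 carried any description. The 198 records stand for 176 gene identifiers, because 45 of them are parts of gene models that the annotation had split. They were sorted by description into 13 role classes, from receptors to the machinery of vesicle release. The names were given by sequence similarity, so that a name such as dopamine receptor is a predicted role and not a tested one.

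At a chemical synapse, a transmitter is loaded into vesicles by a vesicular transporter, and SNARE proteins of the vesicle and of the plasma membrane fuse both membranes when calcium binds synaptotagmin. The released transmitter opens channel receptors or activates G protein-coupled receptors on the receiving cell, and is then removed by an enzyme or an uptake transporter. In arthropods, acetylcholine is the main excitatory transmitter of the central nervous system, and glutamate acts at the nerve-muscle junction. GABA inhibits the receiving cell, and the amine transmitters and neuropeptides modulate signalling at both places.

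Messenger RNA was measured in 3 libraries of the wild-type NIES strain under nutrient-rich feeding. Each was prepared from the whole bodies of 5 pooled females at 12 days, when the clutch with number 2 was released, and the eggs had been flushed out beforehand. The 3 libraries, called replicates 1 to 3 as the labels number them, form a single group, and libraries of mutant or starved animals, which the study also used, were not analysed here. There is therefore no contrast between groups, and every comparison below is between records, between role classes or between the replicates. In whole animals, fewer cells of a type and less RNA per cell cannot be told apart.

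Gene records held between 8679171 and 9092389 counts per library. A record without counts could have lain at up to 0.309 to 0.354 CPM (counts scaled to a common library size), the limit that a count of 0 allows in the respective library, for counting error only. The members took 19828, 20434 and 24121 counts in replicates 1, 2 and 3. These are 0.224%, 0.235% and 0.265% of the gene counts. The Wilson 95% interval ran from 0.221% to 0.227% for the first, from 0.232% to 0.239% for the second and from 0.262% to 0.269% for the third. The intervals do not overlap, so that the share differed between libraries by more than counting error. Without the most abundant record, the shares were 0.180%, 0.188% and 0.191%. Over the 175 members with any count, CPM of 2 replicates correlated across records at a Pearson r of 0.964 to 0.967 and a Spearman rho of 0.933 to 0.936, where records are not independent replicates.

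Most of the members were detected, at a low level. At least 1 count was found in all libraries for 145 members, or 73.2%, beside 42.3% of all records and 65.5% of the described records. A further 30 members had counts in some libraries and 23 in none. To compare records of different length, levels are given in TPM, the deposited transcript abundance, which divides counts by gene length and sums to the same total in each library. Among records detected in all libraries, the median was 1.99 TPM over the members, 6.25 TPM over all records and 10.9 TPM over the described records. In all, 34 members reached a mean of 10 TPM and 103 stayed under 1 TPM. The members' TPM summed to 1423 in replicate 1, 1462 in replicate 2 and 1655 in replicate 3.

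**Figure D1:**
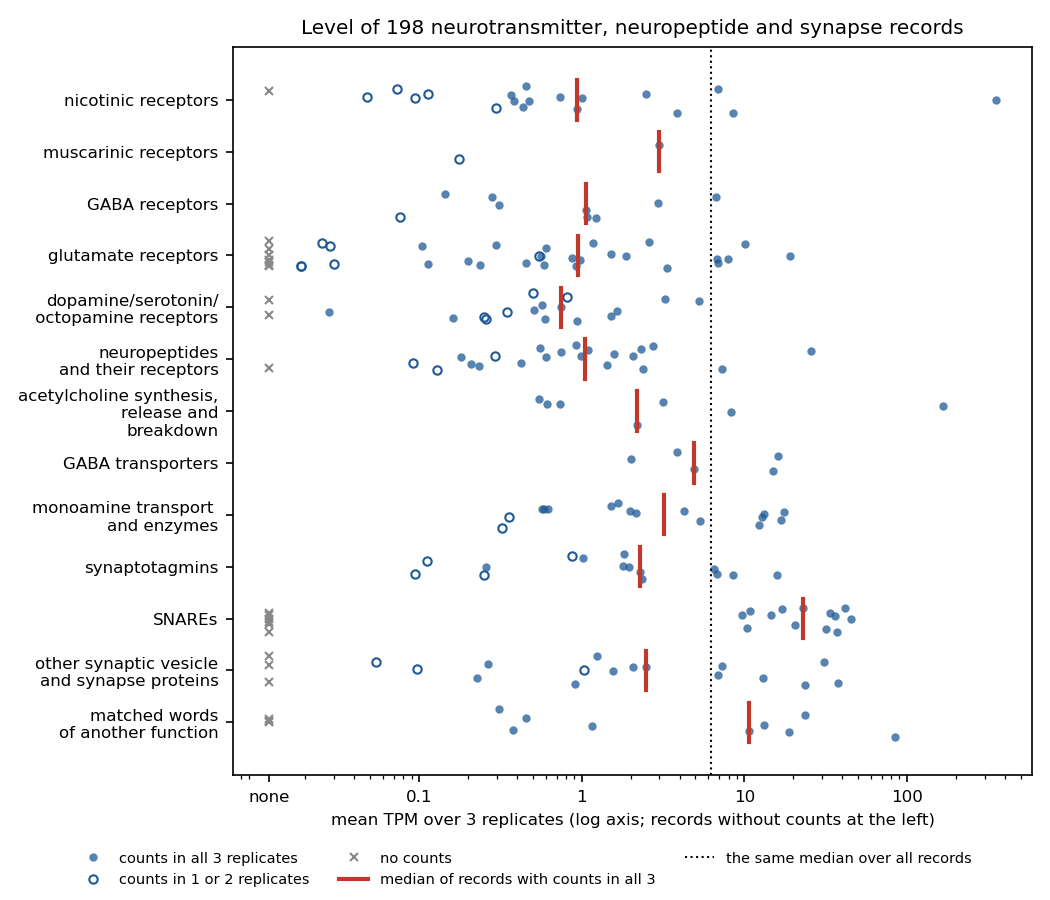
Mean TPM over the 3 replicates on a log axis for each of the 198 records, by role class. Filled points have counts in all replicates, open points in 1 or 2, crosses in none; red bars are medians of the filled points and the dotted line is the median of all records detected in all libraries, 6.25 TPM. The class medians of the receptors lie at or below 2.99 TPM, while that of the SNAREs lies at 23.0 TPM.

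Receptors were the largest group and that with the lowest median. The 104 receptor records divide into 50 of channel type and 54 of G protein-coupled type. Of these, 72 were detected in all libraries, with a median of 0.96 TPM, and 4 reached 10 TPM. The median of the channel receptors was 0.93 TPM and that of the G protein-coupled receptors 1.03 TPM. The 39 records of synaptotagmins, plasma-membrane SNAREs and other vesicle and synapse proteins had a median of 2.50 TPM, and 8 of them reached 10 TPM. No test was made between these groups, whose records share libraries and differ in length.

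Nicotinic receptors, the channels through which acetylcholine excites nerve cells, were represented by 19 records. Of these, 13 were detected in all libraries, with a median of 0.94 TPM. A single record stood far above the others. This acetylcholine receptor subunit alpha-like 1 (scaffold02569, 70553 to 72757, minus strand) was present at 288, 306 and 460 TPM in replicates 1, 2 and 3, with a mean of 351 ± 94.6 TPM (SD, n = 3), and was the most abundant of all members. Replicates 1 and 2 lay close together and replicate 3 above both, by 1.52-fold and 1.43-fold in CPM. The counts, 3875, 4133 and 6742, differed between libraries beyond counting noise (chi-square test of homogeneity, Benjamini-Hochberg adjusted p = 1.39e-120).

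The locus limits what this value means. An undescribed record on the same strand (70588 to 76595) covers nearly the whole of the abundant one and held 12721, 10673 and 13721 counts, a mean of 448 TPM. The named record took 23.3%, 27.9% and 32.9% of the counts of the pair. Summed over both, the CPM was 1960, 1743 and 2109, and the ratio of replicate 3 to replicate 1 came to 1.08 in place of 1.52 and that to replicate 2 to 1.21 in place of 1.43. The division of counts between the records was thus not the same in each library, and replicate 3 exceeded the others by less in the pair than in the named record. This sum was made after the values had been seen. The GO terms of the record include extracellular ligand-gated ion channel activity but not acetylcholine-gated cation channel activity, a term held by 12 records of the table, all of them members.

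**Figure D2:**
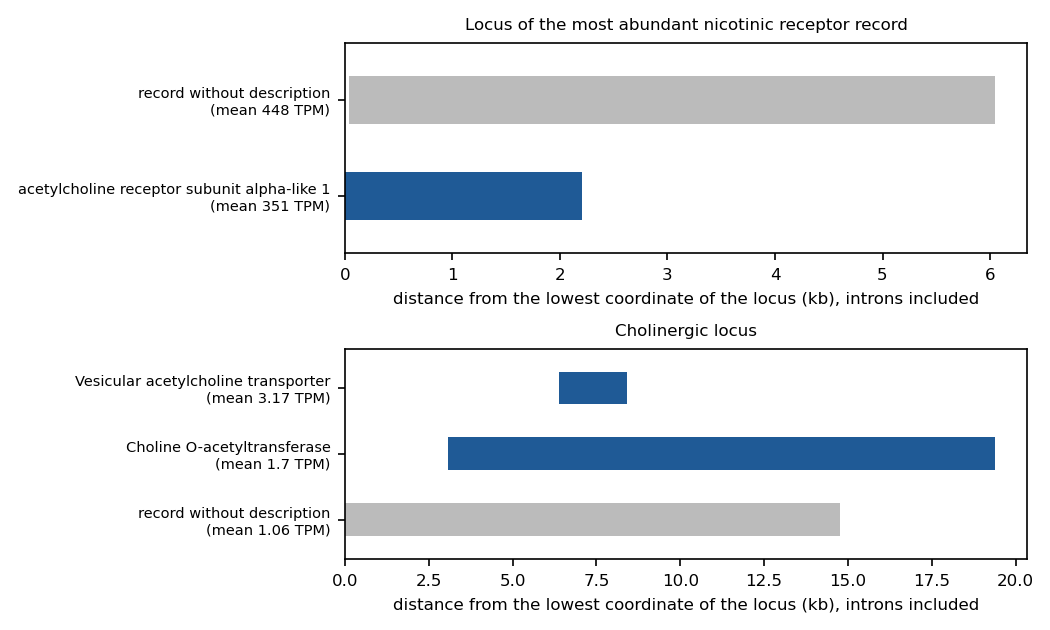
Extents of the records at 2 loci, introns included, as distance in kb from the lowest coordinate of each; blue bars have a description, grey bars have none. The most abundant nicotinic receptor record lies almost wholly within an undescribed record of 448 TPM, and the vesicular acetylcholine transporter lies within the extent of choline O-acetyltransferase.

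The other nicotinic records were at a level typical of receptors. The acr-16-like alpha subunit (scaffold00725, 492936 to 511435, plus strand) had 285, 285 and 396 counts, at 8.55 ± 1.26 TPM (SD, n = 3). A second alpha-like 1 record (scaffold01581, 843629 to 850624, minus strand) had 134, 140 and 122 counts, at 6.92 ± 0.78 TPM. The values of this pair did not overlap, with 7.80 TPM as the lowest of the first and 7.50 TPM as the highest of the second, but lay close together. Subunit alpha5 had 42, 77 and 97 counts and varied beyond counting noise, with replicate 1 lowest. The remaining 15 records had mean levels between 0 and 2.49 TPM.

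Muscarinic receptors, the G protein-coupled receptors of acetylcholine, had 2 records. Muscarinic acetylcholine receptor DM1 (scaffold03025, 330619 to 346145, plus strand) was at 3.82, 3.07 and 2.09 TPM, with 89, 72 and 53 counts. Its replicates differed beyond counting noise (chi-square, adjusted p = 0.0018), with replicate 3 lowest. The gar-2 record, named after a receptor of the nematode Caenorhabditis elegans, had 8, 4 and 0 counts.

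Among the 7 records of acetylcholine synthesis, release and breakdown, all were detected in every library. The most abundant was a putative acetylcholinesterase collagenic tail peptide (scaffold02452, 485204 to 486574, plus strand), named after the collagen that anchors acetylcholinesterase outside vertebrate cells. It had 1469, 1406 and 1837 counts, at 161, 154 and 185 TPM and a mean of 167 ± 16.4 TPM (SD, n = 3), and overlaps no other record. With the abundant nicotinic record, it made up 31.6%, 31.4% and 39.0% of the members' TPM. Both are far above the other records of their role classes. Their part in acetylcholine signalling is predicted from their names and was not tested. The most abundant enzyme record, acetylcholinesterase (scaffold03326, 412377 to 416514, minus strand), which splits the transmitter, was at 7.23, 8.73 and 9.02 TPM. The ace-orthologous and ace-paralogous acetylcholinesterases were at 2.18 and 0.73 TPM on average.

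The vesicular acetylcholine transporter, which fills the vesicles, had 51, 53 and 43 counts, at 3.17 ± 0.48 TPM (SD, n = 3). Its record (scaffold01574, 70751 to 72785, plus strand) lies within the extent of choline O-acetyltransferase (67445 to 83746), the enzyme that makes acetylcholine and is no member by the rule. That enzyme had 53, 31 and 53 counts, at 1.70 ± 0.45 TPM. In many animals these genes are nested in this manner and share their start, the cholinergic locus. An undescribed record on the same strand overlaps both and had 16, 22 and 16 counts, so that the division of reads between the 3 is uncertain.

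GABA receptors, which inhibit the receiving cell through chloride channels or G proteins, had 9 records, none of which reached 10 TPM. Type B receptor subunit 1 (scaffold00996, 213456 to 218153, minus strand) had 139, 166 and 191 counts, at 6.66 ± 0.78 TPM (SD, n = 3). The beta-like channel subunit (scaffold03124, 234469 to 238159, plus strand) had 27, 66 and 43 counts and the GABA-gated chloride channel (scaffold03311, 134371 to 137860, minus strand) 11, 21 and 9. Both varied beyond counting noise, with adjusted p = 0.000274 and 0.0444, and both were highest in replicate 2. Type B subunit 2, which pairs with subunit 1 in the working receptor, had 28, 57 and 44 counts and was highest in the same library.

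The 5 records named as GABA transporters lay between 2.00 and 16.2 TPM, with a median of 4.88 TPM beside 1.07 TPM for the receptors. What these 5 carry is predicted from their names and was not tested. Transporter ine (scaffold01005, 126163 to 130239, minus strand), named after the Drosophila gene inebriated, was at 17.8, 14.0 and 16.9 TPM. An ine-like transporter (scaffold01581, 894892 to 900080, plus strand) was at 12.7, 18.5 and 14.1 TPM. Their replicates overlap, and each varied beyond counting noise in its own order. Transporter 1-like (scaffold00002, 19083 to 23876, plus strand) had 79, 98 and 110 counts, which did not pass the test (adjusted p = 0.382).

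Glutamate receptors formed the largest class, with 35 records, of which 22 were detected in all libraries and 7 in none. The class median was 0.95 TPM, 25 of the 35 stayed under 1 TPM and 2 reached 10 TPM. Metabotropic glutamate receptor 5 (scaffold02659, 3542 to 6797, minus strand), a G protein-coupled receptor, led with 20.8, 19.9 and 16.6 TPM. The channel receptor kainate 2 (scaffold01361, 1978228 to 1982904, plus strand) followed with 279, 267 and 316 counts, at 10.1 ± 0.44 TPM (SD, n = 3), and was among the steadiest members (adjusted p = 0.875).

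A further metabotropic glutamate receptor (scaffold01581, 1993388 to 2004697, plus strand) had 272, 166 and 137 counts, at 11.5, 6.96 and 5.30 TPM. Here replicate 1 was above both others, and the test called the difference (adjusted p = 4.8e-15). The opposite order was found in the U1-like glutamate receptor on scaffold00687, with 69, 125 and 181 counts. The TPM summed over the whole class was nearly the same in each replicate, at 68.1, 68.5 and 67.0. The 5 records of NMDA type held at most 92 counts in any library. In 4 metabotropic and 3 ionotropic records there was no count, among them the 3 metabotropic records that overlap each other on scaffold00568.

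Receptors of dopamine, serotonin and octopamine, all of the G protein-coupled type, were the class with the lowest median, 0.74 TPM over 11 of 18 records detected in all libraries. The serotonin receptors lay highest. A 5-hydroxytryptamine receptor (scaffold01151, 113428 to 121980, minus strand) had 78, 72 and 50 counts, at 5.30 ± 1.38 TPM (SD, n = 3). A part of 5-hydroxytryptamine receptor 1-like (scaffold01037, 1334 to 1904, plus strand) had 24, 7 and 11 counts, while the other part of the same model, on scaffold02452, had 25, 23 and 18. Replicate 1 was highest in both parts. The first passed the test (adjusted p = 0.00426) and the second did not (adjusted p = 0.37), and the difference between the parts was not tested. Receptor 6-like had 17, 29 and 29 counts.

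The 6 dopamine receptor records stayed at or below 0.81 TPM on average and the 4 octopamine receptor records at or below 0.93 TPM. Octopamine receptor beta-3R had 3, 18 and 13 counts, and was the only octopamine record with enough counts to be tested (adjusted p = 0.012). The dopamine receptor 2-like model was split over scaffolds. Its parts had 1, 0 and 10 counts and 0, 1 and 10 counts. In both, replicate 3 held nearly all counts, but each mean was under the 10 counts required for the test.

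Uptake transporters and enzymes of the amine transmitters had a median of 3.19 TPM, above that of their receptors. Dopamine N-acetyltransferase-like records led the 16 records of this class. The first (scaffold02288, 3028 to 3880, minus strand) had 108, 107 and 128 counts, at 17.5 ± 0.95 TPM (SD, n = 3), and the other (scaffold00024, 1724407 to 1725460, plus strand) 134, 100 and 148, at 16.8 ± 2.80 TPM. In insects, this enzyme acetylates and so inactivates dopamine. The sodium-dependent serotonin transporter, which returns serotonin to the nerve ending, was at 14.1, 15.6 and 10.2 TPM (scaffold01361, 546103 to 549071, plus strand).

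The sodium-dependent dopamine transporter (scaffold02837, 27526 to 35069, minus strand), the corresponding pump for dopamine, was the only member in which a library stood at least 2-fold apart from both others. It had 113, 252 and 275 counts, at 7.09, 15.7 and 15.8 TPM. Replicate 1 was about as far below replicate 2 as below replicate 3, which lay together, and the ratio of the highest to the lowest CPM was 2.22 (adjusted p = 1.18e-12). Of the 8976 records with a mean of at least 10 CPM, 2.33% had replicate 1 at least 2-fold below both others and 4.19% had any library apart, so that 1 of the 49 members that passed this filter is near the background. Records that overlap the transporter stayed at or below 1.25 CPM. A serotonin transporter on scaffold00568, with 19, 49 and 42 counts, and dopamine beta-hydroxylase-like, with 13, 21 and 41, were also lowest in replicate 1 and passed the chi-square test.

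Neuropeptides and their receptors comprised 22 records. All but 1 of them are receptors of G protein-coupled type. The FMRFamide receptor (scaffold01161, 33 to 1809, plus strand) was the most abundant, at 20.4, 31.2 and 25.8 TPM from 236, 363 and 325 counts. This record is a part of a split gene model, and no other part of that model is among the members. It overlaps no other record and varied beyond counting noise (chi-square, adjusted p = 4.36e-06), with replicate 1 lowest. The capa receptor-like record (scaffold00115, 91402 to 111163, plus strand), whose ligands act on water balance in insects, had 136, 149 and 135 counts, at 7.29 ± 0.65 TPM (SD, n = 3). The 18 other receptor records besides the CCHamide-1 receptor-like record at 2.76 TPM had means from 0 to 2.39 TPM.

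The only peptide among the members was the allatostatin precursor, with 29, 18 and 20 counts (2.32 ± 0.67 TPM, SD, n = 3), and the allatostatin-A receptor-like record had 14, 23 and 19 counts. Neither passed the test. Receptors for neuropeptide F, SIFamide, CCHamide and tachykinin each had a record with counts, but not every such record had any. The 5 tachykinin receptor records had at most 12 counts in any library, and that on scaffold00084 from 651400 to 652058 had none. The neuropeptide F receptor-like records of scaffold00725 had 0, 3 and 0 counts and 4, 0 and 4 counts.

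The machinery of release was led by SNAREs. These proteins fuse vesicles with their target membranes, and most of them serve every cell and not synapses alone. Of 19 records, 13 were detected in all libraries, at a median of 23.0 TPM, and 12 of them reached 10 TPM. Syntaxin-12 (scaffold00311, 899930 to 901692, minus strand), of endosomes, had 477, 457 and 489 counts, at 45.4 ± 1.48 TPM (SD, n = 3). Syntaxin-6 (scaffold00376, 66397 to 68088, plus strand) was at 44.3, 35.9 and 44.1 TPM and synaptosomal-associated protein 29 (scaffold02452, 35164 to 36375, minus strand) at 37.6, 33.1 and 41.0 TPM. Syntaxin-12 lay above protein 29 in every replicate, while the range of syntaxin-6 reached into those of both others. None of the 3 passed the chi-square test.

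The 14 records of intracellular SNAREs had a median of 28.3 TPM over the 10 detected in all libraries, and the 5 of the plasma membrane 17.1 TPM over 3. Synaptosomal-associated protein 25, the plasma-membrane SNARE of nerve endings, had 151, 135 and 137 counts, at 31.6 TPM. Its partner syntaxin-1A on scaffold00930 had 226, 143 and 148 counts, at 17.1 TPM, with replicate 1 above both others (adjusted p = 1.5e-07), while a syntaxin-1A-like record on scaffold00248 had 67, 101 and 106. Across the 13 SNAREs tested, 2 varied beyond counting noise, syntaxin-1A and syntaxin-17, or 15.4%, beside 54.5% of all records and 56.2% of the described records.

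Synaptotagmins, the calcium sensors of release, had 15 records, 11 of them detected in all libraries at a median of 2.28 TPM. Synaptotagmin 1 (scaffold03124, 282660 to 288712, plus strand) was at 14.7, 16.9 and 16.2 TPM from 316, 366 and 379 counts. Synaptotagmin-10, whose model is split over scaffolds, had 33, 84 and 77 counts in the larger part and 24, 36 and 36 in the smaller. Replicate 1 was lowest in both parts, and the larger passed the test (adjusted p = 6.56e-05).

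Among 19 other vesicle and synapse proteins, those of the vesicle membrane were the most abundant. Synaptophysin-like protein 2 (scaffold00725, 865003 to 866268, minus strand) was at 37.5 ± 2.10 TPM (SD, n = 3), the putative synaptogyrin-1 (scaffold02121, 188826 to 190312, plus strand) at 30.9 ± 3.32 TPM and synaptic vesicle glycoprotein 2B (scaffold02994, 764648 to 767404, minus strand) at 23.5 ± 0.67 TPM. None of the 3 varied beyond counting noise. Proteins of the active zone and of synaptic adhesion lay lower, with a median of 1.24 TPM over the 5 of 9 records detected in all libraries.

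The words of the rule also found 12 records of other functions. The most abundant were the translational regulator FMR1 (scaffold01728, 232997 to 237315, plus strand) at 92.3, 78.8 and 81.3 TPM, extended synaptotagmin-2 (scaffold00944, 982498 to 988812, plus strand), which tethers the endoplasmic reticulum, at 23.6 ± 2.19 TPM (SD, n = 3), and an N-acetylserotonin O-methyltransferase-like protein (scaffold02385, 195797 to 197501, plus strand) at 18.7 ± 1.87 TPM. Synaptotagmin-like protein 4 on scaffold03124 had 1454, 1320 and 924 counts and was lowest in replicate 3. Without these 12 and the 14 intracellular SNAREs, the remaining 172 records took 0.151%, 0.165% and 0.195% of the counts.

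**Figure D3:**
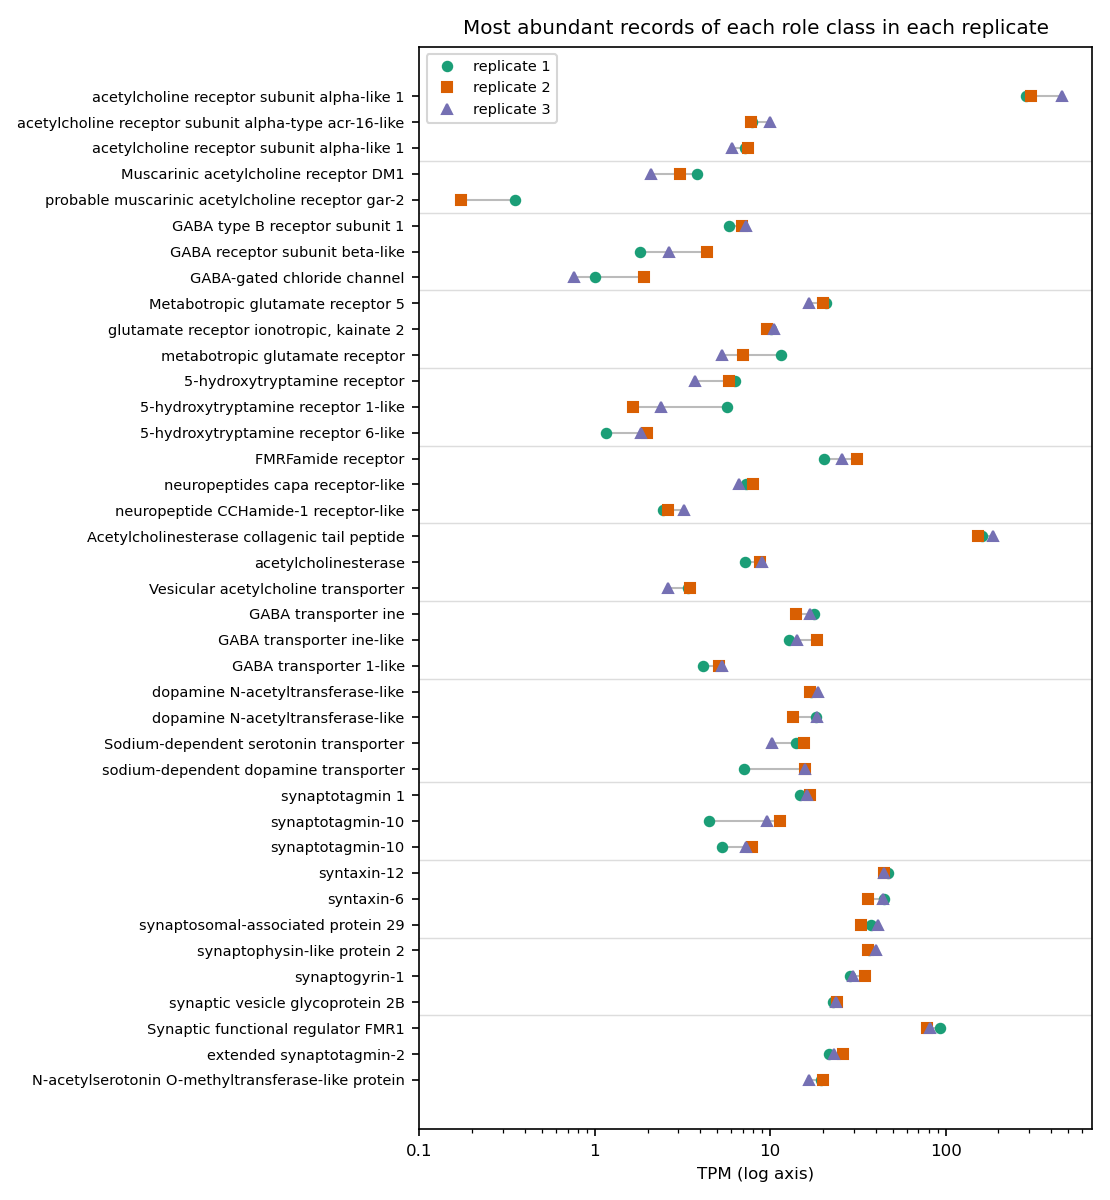
TPM in each replicate, on a log axis, of the 3 most abundant records of each role class (both records of the muscarinic class) and of the dopamine transporter; grey lines join the lowest and highest replicate with counts, and the gar-2 record had no count in replicate 3. The abundant nicotinic record lies at 288 to 460 TPM, and the dopamine transporter at 7.09 TPM in replicate 1 against 15.7 and 15.8 TPM.

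The spread between replicates was next compared with that of other genes. Of 104 members with a mean of at least 10 counts, 45 varied beyond counting noise, or 43.3%, while the background was 54.5% of all records tested and 56.2% of those with a description. Members hold few counts, and the power of the test rises with counts. Among records with 10 to 30 counts, 13 of 33 members (39.4%) and 33.2% of all records were called, and among those with 30 to 100 counts 13 of 28 (46.4%) and 42.4%. From 100 to 300 counts the shares were 9 of 26 (34.6%) and 53.7%, and above 300 counts 10 of 17 (58.8%) and 81.3%. The share was above that of all records in the 2 lower bins and below it in the 2 upper ones.

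The ratio of the highest to the lowest replicate among the 45 records ranged from 1.14 to 7.88, with a median of 2.02. The largest ratio was that of a dopamine N-acetyltransferase on scaffold00024, with 8, 3 and 27 counts, which lies on the strand opposite to its neighbours of the same name. In 16 of the 45, a record with a mean of at least 1 CPM overlaps the member, beside 88 of all 198 members. Replicate 1 was the lowest library in 23 of the 45, or 51.1%, beside 37.6% of all 8454 records called, and replicate 2 the highest in 19, or 42.2%, beside 28.3%.

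The biological coefficient of variation (BCV), the spread left after counting noise, had a median of 0.317 over 108 members with a mean of at least 1 CPM and of 0.263 over all 15816 such records. Within bins of counts the medians were close, at 0.403 and 0.407 for 10 to 30 counts, 0.319 and 0.307 for 30 to 100, 0.218 and 0.223 for 100 to 300, and 0.193 and 0.203 above 300. The gap between the overall medians was not seen within the bins. These values are shrunk towards the trend over all records, which by itself draws records of like level together. The ratio of the highest to the lowest replicate is not shrunk. Its median was 2.04 for members and 1.98 for all records at 10 to 30 counts, and 1.56 and 1.54 at 30 to 100. From 100 to 300 counts it was 1.27 and 1.34, and above 300 counts 1.22 and 1.33. By class, the median was lowest in the SNAREs, at 0.197, and highest in the synaptotagmins, at 0.379, of the classes with at least 5 such records.

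**Figure D4:**
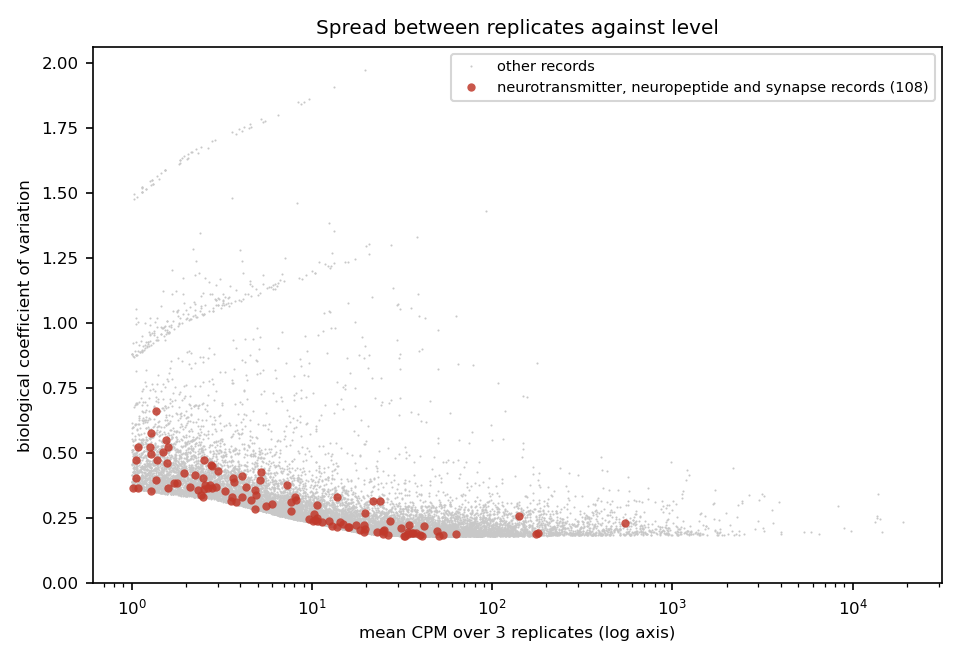
BCV of each record against its mean CPM over the 3 replicates on a log axis; grey points are the other records and red points the 108 members with a mean of at least 1 CPM. The members follow the fall of the BCV with level, from a median of 0.403 at 10 to 30 counts to 0.193 above 300 counts. The values are shrunk towards the trend over all records, so that this is partly built in.

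To see whether a replicate departed in a whole class, the log2(CPM + 0.5) of each record was set against the mean of the other replicates. Over the 108 members, the median deviation was -0.07 in replicate 1, 0.09 in replicate 2 and 0.02 in replicate 3, beside 0.02, 0.01 and 0.02 over all records. In replicates 1, 2 and 3, 44, 62 and 56 of the members lay above 0, beside 8190, 8059 and 8173 of all 15816 such records. The classes hold few records, and some of these are parts of the same gene model. Some class medians lay further from 0. Synaptotagmins were at -0.27, 0.34 and 0.08, and replicate 1 was below the others in all 9 records, among them both parts of synaptotagmin-10. GABA receptors were at -0.25, 0.72 and -0.06, and replicate 1 was below in all 5. Nicotinic receptors were at -0.35, -0.14 and 0.28, with 8 of 9 above 0 in replicate 3, and monoamine transport and enzymes were at -0.21, -0.04 and 0.18, with 3 of 13 above 0 in replicate 1. GABA transporters were at -0.28, 0.16 and -0.19, with 2 of 5 above 0 in replicate 1. Glutamate receptors were at -0.18, -0.04 and 0.08, with 7 of 15 above 0 there. Some other classes had positive medians in replicate 1. Receptors of dopamine, serotonin and octopamine were at 0.21, 0.17 and 0.16, with 4 of 7 above 0 in each replicate, and SNAREs at 0.11, -0.04 and 0.06, with 9 of 13 above 0 in replicate 1.

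With libraries scaled to total gene counts, the median of all records moved from 0.02 to 0.15 in replicate 3, and that of the GABA receptors in replicate 3 turned to 0.07. The negative medians of the 4 classes named first in replicate 1 kept their sign under each scaling tried. Markers of tissues were set beside these deviations. The summed CPM of 8 neuron marker records was 76.5, 80.3 and 76.4. It is not independent of the members, because 2 of the records are parts of synaptotagmin 1. The larger part alone had 37.3, 43.1 and 39.1 CPM. Tyrosine 3-monooxygenase was highest in replicate 3, at 9.80, 8.83 and 13.3 CPM. The larger glutamate decarboxylase record was lowest there, at 10.3, 8.95 and 5.15 CPM. The sum of 22 muscle records was 7642, 7170 and 4751, and that of 19 yolk protein records 66759, 81156 and 41618. The sum of 147 gut records was 16966, 17169 and 17577, and that of 71 eye records 1225, 1423 and 1262. Their part in the deviations was not tested.

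**Figure D5:**
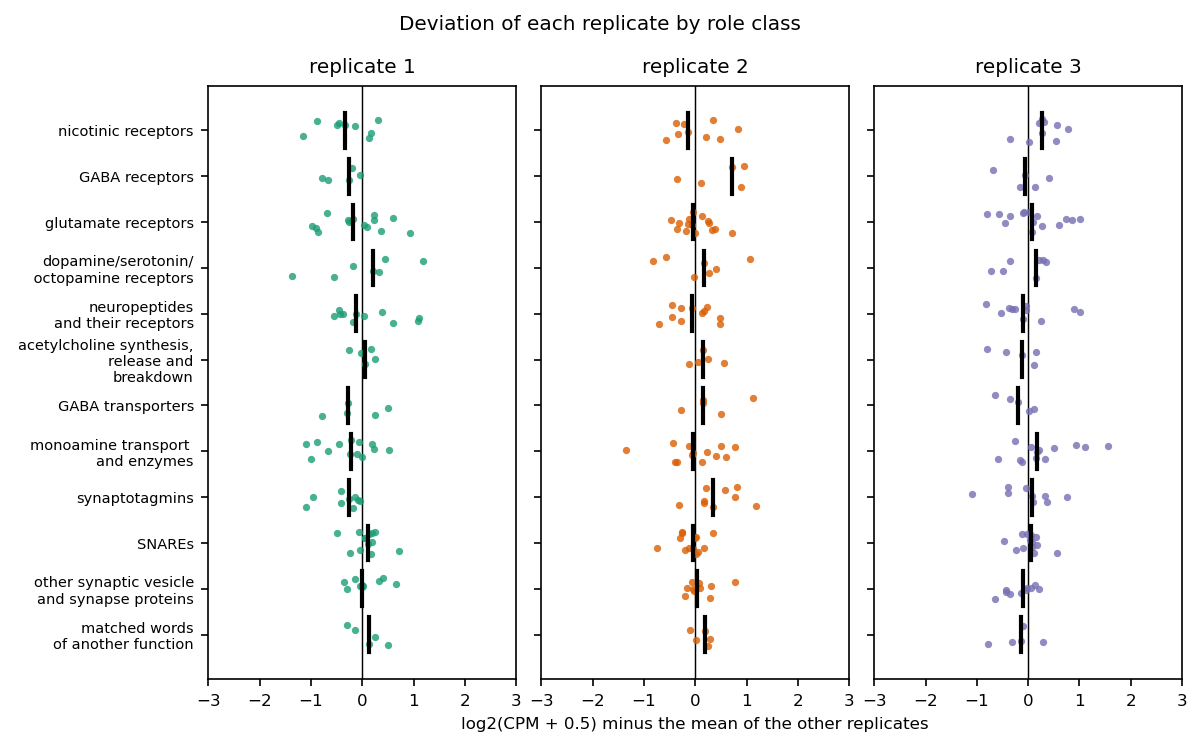
Deviation of each record in each replicate, as log2(CPM + 0.5) minus the mean of the other replicates, by role class; points are records with a mean of at least 1 CPM and black bars class medians. All 9 synaptotagmin points and all 5 GABA receptor points of replicate 1 lie below 0. Of all 15816 records with such a mean, 8190 lie above 0 in replicate 1.

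In features that the rule did not use, the members differed from other records mainly in length. Among records detected in all libraries, the median transcript length was 2022 bp and the median extent on the scaffold 4076 bp. Over all records these medians were 1251 bp and 1766 bp, and over the described records 1569 bp and 2307 bp. The nicotinic receptors extended over a median of 9713 bp. The members lay on 84 scaffolds, and 152 of them, or 76.8%, overlapped another record, near the 74.0% of all records. In 65 cases this was another member. All 198 members carried GO terms, as did nearly all described records (17256 of the table). Membrane terms were frequent, with integral component of membrane in 105. Of the 88 records of the table with the term postsynaptic membrane, 32 were members, and of the 26 with SNAP receptor activity 16 were. Names and GO terms both give predicted functions. Such overlaps thus follow largely from the rule and are no independent support for it.

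Runs of at least 3 members with gaps of at most 50000 bp held 50 of them in 14 runs. The same was not computed for other records, and some runs consist mainly of parts or overlapping copies of the same model, such as the metabotropic glutamate receptors of scaffold00568 and the syg-2-like records of scaffold01348. On scaffold01581 (843629 to 900080), nicotinic alpha-like 1, alpha-like 2 and beta-like 2 subunits were followed by the ine-like GABA transporter, with mean levels of 6.92, 2.49, 0.45 and 15.1 TPM. A nicotinic run on scaffold00024 (281776 to 390542), with beta-like 1, alpha-7-like and alpha6 subunits, was almost silent, with at most 6 counts in any library. Neighbouring subunits of the same family were thus found at both levels. On scaffold00024, 4 dopamine N-acetyltransferase records lie between 1722931 and 1725460 with means of 0.32 to 16.8 TPM, and on scaffold03326 (257626 to 303821) 3 kainate 2 or kainate 2-like records stayed under 1 TPM. Other runs joined genes of different roles, such as the muscarinic receptor DM1 and 3 VAT-1 homologs, or synaptotagmin-17 and syntaxin-12.

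Of the 23 records without counts, 14 were parts of split models, beside 45 of all 198 members. Another record overlapped 21 of the 23, beside 152 of all 198 members, which include the 23. Overlap was thus frequent in both, and a difference between records with and without counts was not tested. By class, 7 were glutamate receptors and 6 SNAREs. Syntaxin-6, synaptobrevin homolog YKT6, synaptosomal-associated protein 25 and synaptogyrin-1 each had a part without counts beside a part at 30.9 to 41.4 TPM. In this order, the parts without counts extend over only 71, 47, 153 and 40 bp, which leaves little room for reads. A value of 0 thus describes the record and not always the gene. Among the 22 models present with at least 2 parts, 11 had at least 1 part at 0.

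Genes whose names point to synapses, transmitters or peptide hormones, but which the rule does not cover, were examined as well. A list of 110 records, such as enzymes of transmitter synthesis, vesicular transporters, hormones and release factors, held no member. Of these, 86 were detected in all libraries at a median of 4.49 TPM. Of 72 tested, 37 varied beyond counting noise. That is 51.4%, near the background of 54.5% of all records and 56.2% of the described records. The list is not clean, because 9 of its records are Rab proteins numbered 30 to 39 that matched the letters of Rab-3. The other records were likewise chosen by name, and whether they act at synapses was not tested. The most abundant records were an excitatory amino acid transporter 1-like, which takes up glutamate, with 913, 1110 and 1069 counts at 71.1 TPM, Rab-32 with 1790, 1023 and 1068 counts at 59.7 TPM, and alpha-soluble NSF attachment protein, which recycles SNAREs, with 574, 543 and 643 counts at 53.1 TPM. They were followed by peptidyl-glycine alpha-amidating monooxygenase, which amidates neuropeptides, at 46.7 TPM, with a further part at 27.2 TPM, choline transporter-like protein 2 at 46.1 TPM, Rab-39B at 36.0 TPM and neurexin-4 at 29.3 TPM.

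The enzymes that make the transmitters were all detected at low to middle levels, and they were named here after their values had been seen. Aromatic-L-amino-acid decarboxylase, which makes dopamine and serotonin, had 85, 94 and 156 counts (9.91 TPM) in the larger of 2 records. Tyrosine 3-monooxygenase, the first step to dopamine, had 83, 75 and 129 counts (6.20 TPM), glutamate decarboxylase, which makes GABA, 87, 76 and 50 (4.74 TPM), and tryptophan 5-hydroxylase 1, the first step to serotonin, 4, 9 and 12 (0.67 TPM). Replicate 3 was highest in both dopamine enzymes. Complexin, a clamp of release, was a record without counts. Among hormones, eclosion hormone on scaffold02076 had 34, 104 and 110 counts in its larger record and pigment dispersing hormone precursor 9, 42 and 27, with replicate 1 lowest in both, while putative adipokinetic hormone preprohormone had 74, 27 and 43.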

How the data were processed

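Total RNA of 3 wild-type samples was sequenced as described above. The authors mapped the reads in CLC Genomics Workbench 12 and deposited total counts per gene record, not normalized. For the genome, its gene models and strand use, no version or setting was found in the labels or the study's methods. The deposited RPKM and TPM values divide the counts by gene length and library size. A further signal deposited by the authors under the name CPM is a scaled count and was not used for results. No column was left unmapped (0 columns).

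From the counts, TMM (trimmed mean of M-values) sizes and the BCV, by an intercept-only model on records whose mean CPM reached 1, were obtained with edgeR 4.0.16 (R 4.3.3). These values are shrunk towards the trend over all records. CPM in the text refers to TMM sizes. Variation beyond counting noise was tested over all records whose mean count reached 10 by a chi-square test of homogeneity over the 3 libraries. Adjusted p-values (Benjamini-Hochberg) under 0.05 were called. A library was called apart where both others were at least 2-fold higher, or 2-fold lower, in a record whose mean CPM reached 10. Such tests measure the spread between these samples, which may be technical. Both methods were tested on simulated data. Gene lengths were recovered from counts and RPKM. The RefSeq gene table given for the species matched 0 members. Sequences were not analysed here.

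Named records are the 3 with the highest mean TPM of each role class, those with a library apart, members in runs of at least 3 with gaps of at most 50000 bp, and the 8 most abundant of the further list. Other records named were chosen after their values were seen. The members and lists were chosen with earlier results of these data known. Alternatives were other library sizes (DESeq2 1.42.0 or total counts), filters, lists and units, and leaving out each replicate. Tables and plots were made in Python 3.11.15 with scipy 1.17.1, numpy 2.4.6, matplotlib 3.10.9 and pandas 2.3.3.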

Additional observations from a re-analysis of the deposited data

How the results depend on the processing

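With DESeq2 size factors, all results kept their values within their spread. Scaling to total gene counts moved the median deviation of the members to -0.15 in replicate 1 and to 0.16 in replicate 3, and changed the sign of 6 of the 36 class medians. The 45 members that varied beyond counting noise became 20 of 43 with a filter 10 times as high, beside 69.3% of all records, and 14 of 30 among records that overlap no other record, beside 50.1%. Fewer records were tested there. Without replicate 1 it was 21 of 106 (29.01% of all records), without replicate 2 30 of 106 (45.0%) and without replicate 3 31 of 100 (38.6%). A single member had a library apart. The number was 0 of 4 with the higher filter (3.79% of all records), 0 of 16 among records without overlap (1.96%), 58 of 175 with no filter on low counts (44.5%) and 6 of 49 at 1.5-fold (16.9%). It was 0 of 50 without replicate 1 (2.25%), 3 of 48 without replicate 2 (5.96%) and 1 of 44 without replicate 3 (4.61%). Among records without overlap, the median deviation in replicate 2 was 0.0072, and with a replicate left out that in replicate 3 lay between -0.072 and 0.041. Without replicate 3, 15 of 24 class medians kept their sign, without replicate 1 19 and without replicate 2 18; each is then a difference between 2 libraries. The role class deviations are therefore descriptions of these libraries. With at least 10 counts required in each library, 94 members were detected in place of 145. The mean share of the counts, 0.242%, was 0.171% without words of another function and 0.186% without the most abundant record, an alternative chosen after seeing the data, as was the sum of the overlapping pair. Of the 10 records highest in TPM, 5 were among the 10 highest in CPM, which is not divided by length, and 10 in RPKM. Of 195 mean CPM values of the 39 most abundant or deviating records under these alternatives, 5 moved by more than the SD between replicates, all with a replicate left out and in 3 records of small spread, kainate 2, synaptophysin-like protein 2 and a dopamine N-acetyltransferase-like record. No paired analysis was possible because the libraries form a single group without a contrast.

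Depth limits the members, since 94 of 198 had under 10 counts on average and could not be tested; 15516 of all 47109 records and 10160 of the 17265 described records reached that mean. With 3 libraries of a single group, no outlying value could be called within the group. Intervals and limits cover counting error only. Overlapping and split records divide reads in ways that the counts do not show, and a value of such a record is uncertain.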

Other observations

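Parts of split gene models are separate records of the same predicted gene and can be set side by side. In 11 models every part had counts. The models named here were chosen after their values were seen, and no test was made between parts. Both parts of dopamine receptor 2-like had counts almost only in replicate 3, with 1, 0 and 10 counts in the longer part and 0, 1 and 10 in the other. The parts of NMDA 3A-like, at 17, 18 and 12 and at 74, 92 and 89 counts, had mean levels of 3.33 and 2.59 TPM. The lowest library was not the same in both. Other parts also differed in their order of replicates. Those of a putative acetylcholinesterase had 8, 1 and 3 counts and 3, 6 and 3 counts. Those of synaptotagmin-4-like had 14, 27 and 41 counts and 0, 7 and 0 counts. Metabotropic glutamate receptor 5 had 458, 442 and 400 counts in a part of 2985 bp. It had none in the other part, which extends over only 126 bp.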
